A study of Mus musculus with 13 samples.

Results

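The genes followed here belong to the Hippo pathway: the coactivator genes Yap1 and Wwtr1, the transcription factor genes Tead1, Tead2, Tead3 and Tead4, the kinase genes Lats1 and Lats2, and Ajuba and Amotl2, which encode proteins that act on the kinases or on the coactivators. They are 10 of the 35734 genes in the authors' deposited comparison table, and all 10 passed the filter on low counts that left 15582 genes. They were picked by name from the pathway after Ajuba had been seen to be strongly lower with Ikzf1, so their differences between the groups are given as a description, with standard errors. Where they are counted by the threshold that was applied to all genes, the share of all genes stands beside the count and the count supports nothing.

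The RNA came from retinas of CD1 mice at postnatal day 0. The dissociated cells were transfected with GFP alone (control) or with Ikzf1-IRES-GFP, a construct that makes Ikzf1 and GFP from 1 transcript, kept in culture for 9 h and sorted for GFP. Ikaros, the product of Ikzf1, is a DNA-binding zinc finger protein. Each group held 4 libraries, of 400000 cells in each control replicate and 300000 cells in each Ikzf1 replicate, and both groups had been dissociated, transfected and sorted. The labels call the replicates biological but do not say which animals or cultures they came from, so p-values measure only the spread between these samples. The promoter driving the transcript in these cells is not named in the labels, and the cells are labelled retinal progenitor cells.

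In the Hippo pathway the kinases encoded by Stk3 and Stk4 activate LATS1 and LATS2, which phosphorylate YAP (Yap1) and TAZ (Wwtr1) and so keep them out of the nucleus. Unphosphorylated YAP and TAZ have no DNA-binding domain of their own and act through the TEAD factors, which bind GGAATG and its reverse complement CATTCC. AJUBA is a LIM-domain protein of cell junctions that can bind and restrain LATS kinases, and AMOTL2 is an angiomotin that can hold YAP at junctions and the cytoskeleton. In the retina the pathway is known for its part in progenitor growth, in the choice between neural retina and pigment epithelium, and in Müller glia.

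The libraries held 21.4 to 30.5 M estimated read pairs, of which the genes that could be tied to transcripts held 99.1 to 99.2%. Ikzf1 was at 67.3 to 85.1 CPM (read counts scaled to library size) in the control libraries and at 171871 to 188565 CPM in the Ikzf1 libraries. Of the 15582 genes tested, 59.1% passed the threshold (adjusted p under 0.05, quasi-likelihood test of edgeR with Benjamini-Hochberg adjustment), 29.8% lower and 29.3% higher with Ikzf1. All 12 retinal progenitor markers were detected in the sorted cells, with a summed level of 1990 to 2114 CPM in the controls and 1782 to 1795 CPM with Ikzf1. In bulk RNA, fewer cells of a type and less RNA per cell cannot be told apart.

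Among the 10 genes, 8 were lower with Ikzf1 by the threshold that 29.8% of all genes tested passed in that direction. Lats2 was higher, as were 29.3% of all genes, and Lats1 was not called, as were 6380 of the 15582. The median log2 fold change of the 10 was -0.79, against 0.0012 over all genes tested. A call with a log2 fold change of -1 or less was found for 4 of them and for 6.4% of all genes tested. These 4 were Ajuba, Tead2, Amotl2 and Tead4. Tead2 was no longer among them with an offset for transcript length (-0.87). Tead4 was no longer among them without Ikzf1 replicate 2 (-0.95) or without Ikzf1 replicate 4 (-0.99). The 4 libraries of one group did not overlap those of the other for 9 of the 10 genes, and for 53.1% of all genes tested. In 8 of these 9 the Ikzf1 libraries were the lower ones, as in 26.6% of all genes tested. Nothing is read from these counts, because the same comparison chose the genes.

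**Figure D1:**
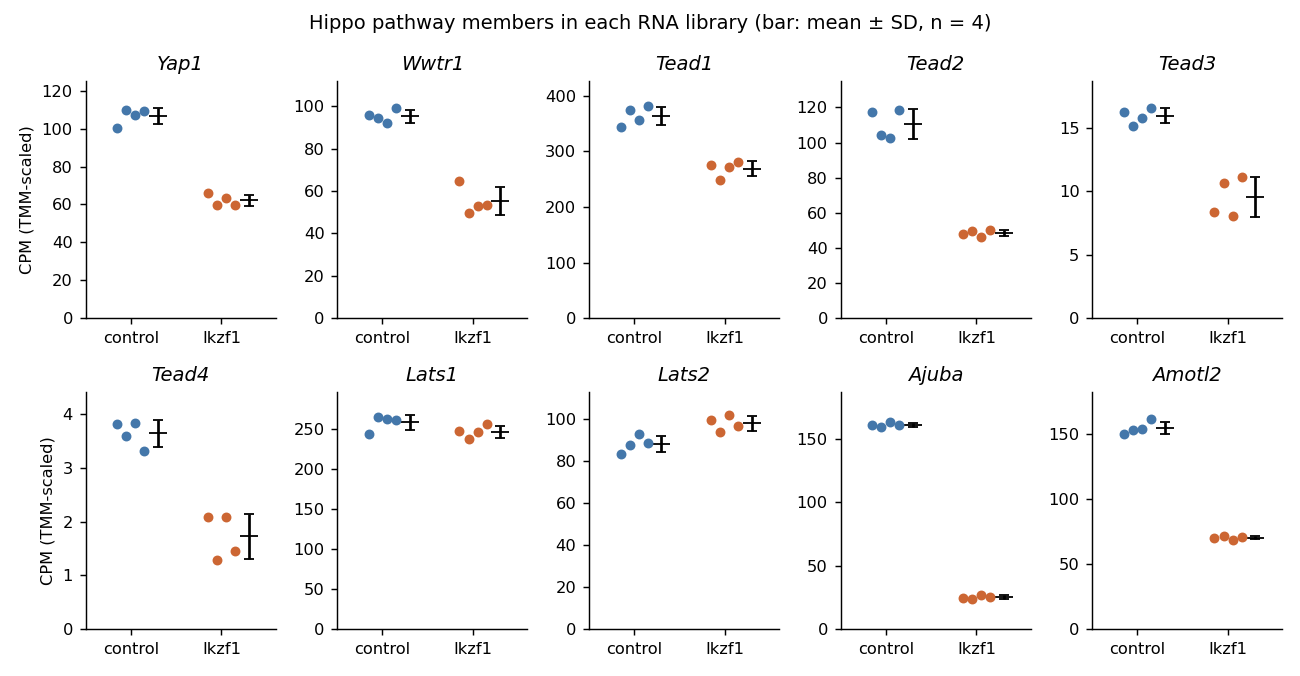
Level of each of the 10 genes in every RNA library, in CPM scaled by TMM (vertical axes start at 0). Each point is 1 library and the bar is the mean ± SD of 4. Ajuba has the widest gap, 159 to 163 CPM against 23.9 to 27.0, and Lats1 is the gene whose groups overlap.

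Ajuba (ENSMUSG00000022178, chr14:54567472-54577558, minus strand, GRCm38) was at 160.5, 159.0, 163.2 and 160.9 CPM in control replicates 1 to 4 and at 24.0, 23.9, 27.0 and 25.5 CPM in Ikzf1 replicates 1 to 4. Each group was tight, and the lowest control library was far above the highest Ikzf1 library. The mean went from 161 ± 1.71 to 25.1 ± 1.46 CPM (SD, n = 4 each), a 6.40-fold lower level with 15.6% of the control level left (log2 fold change -2.68, SE 0.050). These values rested on 3625 to 4616 estimated read pairs per control library and 542 to 719 per Ikzf1 library. Ordered by log2 fold change, Ajuba held place 51 among the 7772 genes with a value below 0, and place 4 among the 2572 genes with a control mean of at least 100 CPM. For this gene the value in the authors' deposited table was -2.64 (SE 0.058).

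Both annotated transcripts of Ajuba were lower. ENSMUST00000054487 (3397 nt) had a mean of 127 ± 6.31 CPM in the controls and 19.2 ± 1.72 CPM with Ikzf1, a 6.59-fold difference. ENSMUST00000226463 (2214 nt) had a mean of 34.3 ± 7.66 CPM in the controls and 5.90 ± 0.53 CPM with Ikzf1, a 5.82-fold difference. The share of the longer transcript was 78.7% ± 4.54 in the controls and 76.4% ± 2.95 with Ikzf1, so the split between the transcripts differed by less than the spread between libraries.

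The 250 bases before the RefSeq transcription start of Ajuba, Yap1 and Wwtr1 are shown because these are the gene with the widest gap and the 2 coactivator genes, and because each window holds the TEAD letters. The sequences are those of RefSeq on GRCm38.p6, read 5′ to 3′ on the strand of the gene (minus for all 3), at chr14:54577662-54577911 for Ajuba, chr9:8004597-8004846 for Yap1 and chr3:57575911-57576160 for Wwtr1. Capitals mark GGAATG or CATTCC (TEAD) and, in Ajuba, TTCCCA (the reverse complement of TGGGAA, the core letters bound by Ikaros family proteins).
Ajuba: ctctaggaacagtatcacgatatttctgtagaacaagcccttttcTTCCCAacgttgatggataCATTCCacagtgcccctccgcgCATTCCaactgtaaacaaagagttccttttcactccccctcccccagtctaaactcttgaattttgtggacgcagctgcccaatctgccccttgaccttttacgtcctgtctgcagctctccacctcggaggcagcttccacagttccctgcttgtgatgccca
Yap1: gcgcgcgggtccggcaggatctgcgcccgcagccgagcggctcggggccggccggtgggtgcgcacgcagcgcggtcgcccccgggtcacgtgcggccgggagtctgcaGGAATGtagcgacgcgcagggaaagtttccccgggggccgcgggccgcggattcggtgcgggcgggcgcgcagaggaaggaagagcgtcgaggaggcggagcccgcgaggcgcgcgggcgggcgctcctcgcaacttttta
Wwtr1: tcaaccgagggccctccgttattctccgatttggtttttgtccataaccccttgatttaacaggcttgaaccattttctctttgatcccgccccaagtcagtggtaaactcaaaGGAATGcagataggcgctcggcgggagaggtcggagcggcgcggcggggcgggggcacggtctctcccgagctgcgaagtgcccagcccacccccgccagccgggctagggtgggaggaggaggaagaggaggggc
The RefSeq start is the outer end of the gene as printed above for Yap1 and Wwtr1, and for Ajuba it lies 103 bases upstream of that end, at base 54577661. Counting the base just before the RefSeq start as -1, the Ajuba window held CATTCC with its first base at -186 and at -164, and TTCCCA at -205. The Yap1 window held GGAATG at -141 and the Wwtr1 window held it at -136. The Ajuba window had 50.8% G and C and 7 CG dinucleotides, close to the median of 52.4% and 6 over 32851 RefSeq windows, whereas the Yap1 window had 76.4% and 44 and the Wwtr1 window 61.6% and 18.

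RefSeq windows were at hand for 8 of the 10 genes, 12 windows in all, and Tead1 and Tead4 had none. GGAATG or CATTCC was found on either strand in 7 of the 12 windows and in 5 of the 8 genes (Yap1, Wwtr1, Tead3, Ajuba and Amotl2), against 12.6% of all windows of that length and 14.4% of 27025 genes. TGGGAA or TTCCCA was found in 4 of the 12 windows and in 3 of the 8 genes (Tead2, Tead3 and Ajuba), against 21.6% of all windows and 24.1% of genes. The 2 motifs shared no base in the windows of these genes. The Lats1 window and both Lats2 windows held neither. The 2 Lats2 starts, at bases 57746123 and 57734418, lie inside the gene, whose outer end is at 57758388. The bases before that end were not searched. The Amotl2 start, at base 102717804, also lies inside its gene, which begins at 102716672, and so does its CATTCC. The Tead2 start, all Tead3 starts and the Wwtr1 start at base 57575876 lie inside their genes as well. So do the TTCCCA of Tead2 at -35, the CATTCC matches of Tead3 and the TGGGAA of Tead3 at -40. A match of 6 letters is a description of the sequence and not a binding site, and windows of 1 gene share bases.

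Yap1 (ENSMUSG00000053110, chr9:7931999-8004596, minus strand), the gene of YAP, was at 100.5, 109.9, 107.3 and 109.4 CPM in the controls and at 65.8, 59.8, 63.2 and 59.7 CPM with Ikzf1. Wwtr1 (ENSMUSG00000027803, chr3:57455649-57575910, minus strand), the gene of TAZ, was at 96.0, 94.3, 91.9 and 99.2 CPM in the controls and at 64.6, 49.8, 53.2 and 53.2 CPM with Ikzf1. For both coactivators every Ikzf1 library was below every control library, and Ikzf1 replicate 1 was the highest of its group. The log2 fold changes were -0.78 (SE 0.048) for Yap1 and -0.79 (SE 0.061) for Wwtr1, which is 58.2% and 57.9% of the control level. The authors' deposited table gave -0.76 for each.

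The balance between the coactivators was the same in both groups within the spread. Yap1 made up 58.5% ± 1.04 of the summed TPM (transcripts scaled to library size, a level per length) of Yap1 and Wwtr1 in the controls and 58.6% ± 2.74 with Ikzf1 (SD, n = 4 each). Within Wwtr1 the transcript shares did move. ENSMUST00000029380 (4697 nt) held at least 88.4% of the gene's reads in each control library and 80.4 to 85.7% with Ikzf1, and the remainder was ENSMUST00000120977 (4533 nt). The second transcript was at 0 to 11.2 CPM in the controls and 7.58 to 12.7 CPM with Ikzf1, groups that overlap. By the same estimates the first transcript went from 89.8 ± 6.81 to 45.8 ± 4.48 CPM, without overlap. The split of reads between these transcripts varied among the controls and was not tested. The main transcript of Yap1, ENSMUST00000086580 (4115 nt), held 70.8% ± 3.23 of its reads in the controls and 73.3% ± 8.95 with Ikzf1.

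The TEAD factors are the DNA-binding partners of YAP and TAZ. Tead1 (ENSMUSG00000055320, chr7:112679318-112906807, plus strand) was at 344, 374, 356 and 381 CPM in the controls and at 275, 249.1, 271 and 279.9 CPM with Ikzf1. Tead2 (ENSMUSG00000030796, chr7:45215753-45233644, plus strand) was at 118, 104, 102 and 118 CPM in the controls and at 47.8, 49.8, 46.0 and 50.1 CPM with Ikzf1. Neither gene's groups overlapped, and the gap was narrower for Tead1 (log2 fold change -0.44, SE 0.046) than for Tead2 (-1.19, SE 0.054). The value for Tead2 depended on how transcript length was treated. It was -0.87 with an offset for the mean transcript length of the gene in each library and -0.80 from TPM rescaled without Ikzf1. The authors' deposited table gave -0.85 for Tead2 and -0.39 for Tead1.

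Tead3 and Tead4 were at lower levels. Tead3 (ENSMUSG00000002249, chr17:28331671-28350817, minus strand) was at 16.2, 15.2, 15.8 and 16.6 CPM in the controls and at 8.39, 10.7, 8.02 and 11.1 CPM with Ikzf1 (log2 fold change -0.74, SE 0.0997). Tead4 (ENSMUSG00000030353, chr6:128224288-128300823, minus strand) was at 3.82, 3.60, 3.83 and 3.31 CPM in the controls and at 2.09, 1.28, 2.08 and 1.46 CPM with Ikzf1. The groups of both genes stood apart, with Ikzf1 libraries that spread more widely in proportion than the controls. The difference in Tead4 (log2 fold change -1.07, SE 0.20) rested on 82 to 105 estimated read pairs per control library and 29 to 52 per Ikzf1 library, the lowest counts of the 10 genes.

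On the scale per length, Tead2 and Tead1 made up most of the TEAD RNA in both groups. Tead2 held 59.5% ± 2.45 of the summed TPM of the 4 genes in the controls and 52.7% ± 3.80 with Ikzf1, and its shares overlapped between the groups (56.8 to 61.8% against 49.4 to 57.3%). Tead1 held 33.7% ± 2.05 in the controls and 41.2% ± 3.74 with Ikzf1, and no Ikzf1 library was below the highest control share of 35.5%. Tead3 held 5.50% ± 0.50 and 5.23% ± 0.80, and Tead4 1.27% ± 0.22 and 0.92% ± 0.29, overlapping between the groups. The main transcripts were ENSMUST00000069256 (9480 nt) for Tead1, with 86.4% ± 1.25 of its reads in the controls and 87.6% ± 3.27 with Ikzf1, and ENSMUST00000033060 (2140 nt) for Tead2, with 80.4% ± 2.36 and 76.6% ± 1.89. A second Tead2 transcript, ENSMUST00000107801 (3396 nt), held 12.6% ± 1.16 and 14.5% ± 2.38. Most of the remaining Tead2 reads went to short transcripts, of 178 to 895 nt. A read adds more TPM to a short transcript than to a long one. The level and share of Tead2 per length therefore rest in part on these reads, and were not computed without them.

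The LATS kinases, which inactivate YAP and TAZ, did not follow the other genes. Lats1 (ENSMUSG00000040021, chr10:7681214-7716460, plus strand) was at 243, 265, 262 and 261 CPM in the controls and at 247, 237, 246 and 255 CPM with Ikzf1. The groups overlapped, with control replicate 1 inside the Ikzf1 range, and the log2 fold change was -0.07 (SE 0.043, approximate 95% interval -0.15 to 0.02). Lats2 (ENSMUSG00000021959, chr14:57689662-57758388, minus strand) was at 83.5, 87.5, 93.1 and 88.8 CPM in the controls and at 99.6, 93.8, 101.9 and 96.7 CPM with Ikzf1. Its groups did not overlap, but the highest control library and the lowest Ikzf1 library were close, and the level was 1.11-fold higher (log2 fold change 0.15, SE 0.046). The authors' deposited table gave 0.18 for Lats2 and -0.07 for Lats1. Lats1 made up 66.6% ± 1.63 of the summed TPM of the 2 kinase genes in the controls and 62.7% ± 1.57 with Ikzf1. These shares overlapped between the groups, with control replicate 3 at 64.4% and Ikzf1 replicate 4 at 65.0%.

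Amotl2 (ENSMUSG00000032531, chr9:102716672-102733418, plus strand) was at 150.0, 153.0, 154.1 and 161.2 CPM in the controls and at 69.9, 71.6, 68.5 and 70.7 CPM with Ikzf1. Both groups were tight and far apart, and the level was 2.20-fold lower with Ikzf1 (log2 fold change -1.14, SE 0.043). Its main transcript ENSMUST00000035121 (4328 nt) was at 103 ± 3.90 CPM in the controls and 36.7 ± 7.54 CPM with Ikzf1, a 2.81-fold difference with no overlap. The transcript ENSMUST00000130602 (3475 nt) was at 35.1 ± 6.73 CPM in the controls and 23.5 ± 6.30 CPM with Ikzf1, and its groups overlapped. The share of the main transcript was 66.7% ± 4.09 in the controls and 52.3% ± 10.7 with Ikzf1, and the shares of single libraries overlapped.

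Levels can be compared between genes only per length. Ikzf1 itself took 18.0% ± 0.68 of the deposited TPM of its libraries and so lowered every other value there, and TPM was therefore rescaled to a total without Ikzf1. In the controls the order by mean TPM was Tead2 (137 ± 15.3), Ajuba (105 ± 4.11), Amotl2 (94.0 ± 5.22), Tead1 (77.2 ± 2.64), Lats1 (70.0 ± 3.42), Yap1 (55.8 ± 1.58), Wwtr1 (39.7 ± 1.20), Lats2 (35.1 ± 2.81), Tead3 (12.6 ± 1.19) and Tead4 (2.88 ± 0.32). The libraries of neighbours in this order did not overlap, except for Ajuba with Amotl2 and Wwtr1 with Lats2. With Ikzf1 the order was Tead2 (78.6 ± 8.403), Lats1 (69.3 ± 3.45), Tead1 (61.2 ± 3.66), Amotl2 (44.8 ± 2.43), Lats2 (41.2 ± 1.21), Yap1 (34.2 ± 1.99), Wwtr1 (24.1 ± 2.60), Ajuba (17.4 ± 0.95), Tead3 (7.79 ± 1.31) and Tead4 (1.36 ± 0.40), where Tead2 overlapped Lats1 and Amotl2 overlapped Lats2. Ajuba went from place 2 to place 8, and both kinase genes moved up. The first place of Tead2 rests in part on reads of short transcripts, as given above, and could be lower without them. In TPM as deposited the mean of Lats2 was 35.1 in the controls and 33.8 with Ikzf1, whereas it was higher with Ikzf1 in CPM and in the rescaled TPM (0.24 on the log2 scale).

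**Figure D2:**
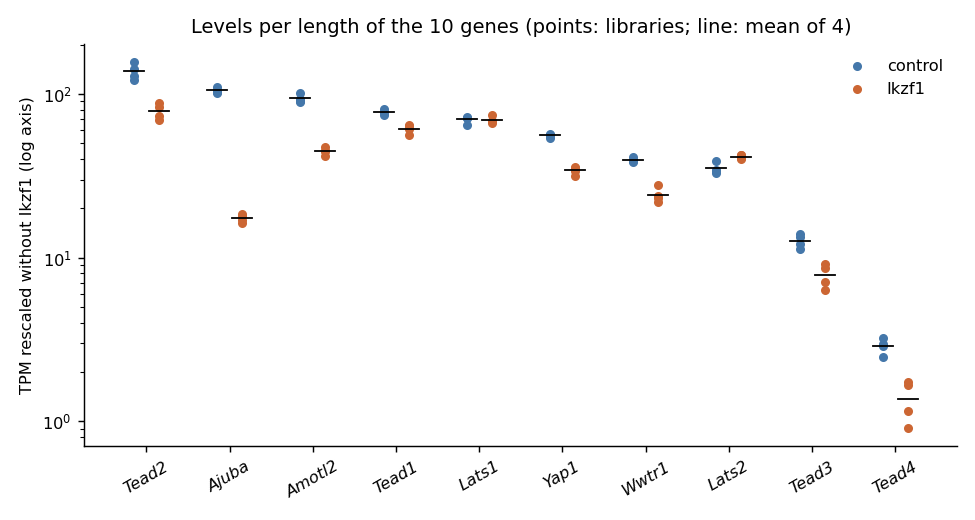
TPM of the 10 genes, rescaled to a total without Ikzf1, on a log axis, in the order of the control means. Points are libraries and lines are means of 4. Tead2, whose TPM rests in part on reads of short transcripts, is at the top in both groups. Ajuba is at 105 TPM in the controls and 17.4 TPM with Ikzf1, where it is below Lats1, Lats2, Yap1 and Wwtr1.

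Within the family of AJUBA, whose members LIMD1 and WTIP can also bind LATS kinases, the balance shifted. Limd1 was at 89.2, 86.5, 90.5 and 87.6 CPM in the controls and at 117, 124, 128 and 135 CPM with Ikzf1, and rose with a log2 fold change of 0.51 (SE 0.046, adjusted p = 1.67e-10 with edgeR). Wtip was at 10.6 to 11.6 CPM in the controls and 12.4 to 14.5 CPM with Ikzf1, and rose by 0.27 (SE 0.088, adjusted p = 0.010 with edgeR), a call that was lost with the offset for transcript length (0.05, edgeR adjusted p = 0.75, against 0.0058 to 0.75 over 15 alternatives). Ajuba made up 65.5% ± 1.15 of the summed TPM of Ajuba, Limd1 and Wtip in the controls and 18.9% ± 0.86 with Ikzf1. In mean rescaled TPM, Limd1 was at 36.7 in the controls and 54.6 with Ikzf1. Ajuba was above Limd1 in each control library and below it in each Ikzf1 library.

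The related zyxin group, actin-bound LIM proteins of focal adhesions and cell junctions, fell in all 3 of its genes, a direction in which 29.8% of all genes tested passed the threshold. Zyx was at 174, 167, 167 and 189 CPM in the controls and at 67.6, 73.4, 71.0 and 73.8 CPM with Ikzf1 (log2 fold change -1.29, SE 0.048). Trip6 was at 55.2 to 58.5 CPM in the controls and 15.9 to 18.2 CPM with Ikzf1 (-1.74, SE 0.060). Lpp was at 122.1, 146.9, 150.3 and 145.6 CPM in the controls and at 36.4, 33.4, 35.0 and 34.5 CPM with Ikzf1 (-2.02, SE 0.059), and control replicate 1 was low in its group. The groups of these 3 genes did not overlap, which held with the Ikzf1 libraries lower for 26.6% of all genes tested, and the highest of their edgeR adjusted p-values was 8.08e-19 (Zyx). The pseudogene Morf4l1-ps1, with a mean of 2039 normalised counts, lies inside Lpp on the same strand (969 bases), and reads of the 2 could be exchanged in counting.

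**Figure D3:**
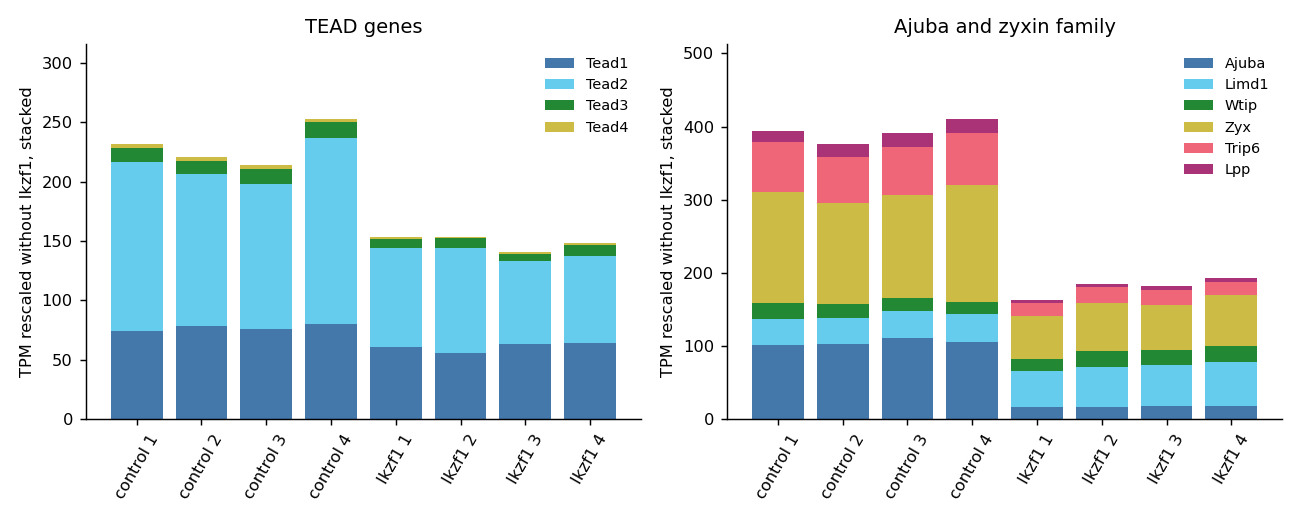
TPM, rescaled to a total without Ikzf1, of the 4 TEAD genes (left) and of the 6 genes of the Ajuba and zyxin family (right), stacked for each library (vertical axes start at 0, in TPM). The Ajuba block shrinks from 101 to 111 TPM in the controls to 16.3 to 18.4 TPM with Ikzf1 while the Limd1 block does not, and the TEAD sum goes from 214 to 253 TPM in the controls to 141 to 153 TPM.

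The other angiomotins and the vestigial-like cofactors moved in both directions. Amotl1 fell from 84.9 ± 4.25 to 52.0 ± 4.33 CPM (log2 fold change -0.71, SE 0.056, edgeR adjusted p = 1.22e-11), while Amot, at 39.2 ± 1.60 CPM in the controls and 37.6 ± 2.96 CPM with Ikzf1, did not pass the threshold (-0.06, SE 0.061, edgeR adjusted p = 0.42). Amotl2 made up 74.3% ± 1.29 of the summed TPM of the 3 angiomotin genes in the controls and 63.0% ± 2.72 with Ikzf1. The vestigial-like proteins bind TEAD factors in place of YAP and TAZ. Vgll4, whose protein can displace YAP from TEAD, fell from 43.3 ± 2.93 to 34.5 ± 3.21 CPM (-0.32, SE 0.066, edgeR adjusted p = 0.00012). Vgll3 rose from 2.54 ± 0.19 to 9.97 ± 1.19 CPM (1.96, SE 0.13, edgeR adjusted p = 4.17e-13), and Vgll1 and Vgll2 were too low to be tested.

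The kinases, scaffolds and upstream regulators of the pathway moved in both directions. Of 32 such genes, 10 fell, 15 rose and 7 did not pass (78.1% called, against 59.1% of all genes tested, 29.8% lower and 29.3% higher), and their median log2 fold change was 0.06. Their values ran from -0.81 (Taok2, a kinase upstream of the pathway) to 1.08 (Frmd6), and none was lower by 1 or more. Frmd6, a FERM-domain protein upstream of the kinases, rose from 25.3 ± 1.95 to 53.6 ± 1.82 CPM (SE 0.061, edgeR adjusted p = 7.66e-15). Dchs1, the protocadherin ligand of the pathway's FAT receptors, rose from 121 ± 0.97 to 238 ± 13.9 CPM (0.98, SE 0.045, edgeR adjusted p = 9.33e-17), and its receptor gene Fat4 rose by 0.50. Of the core, Stk3 fell by 0.49, its adaptor Sav1 by 0.59 and the LATS cofactor Mob1a by 0.34, Mob1b rose by 0.19, and Stk4 was at 0.03 and did not pass. Taok2, Fat4 and these core genes were named after their values were seen. Together with the LIM and cofactor genes, 41 of 43 regulators were tested, of which 15 fell and 18 rose (80.5% called, against 59.1% of all genes tested), and their median was 0.03.

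**Figure D4:**
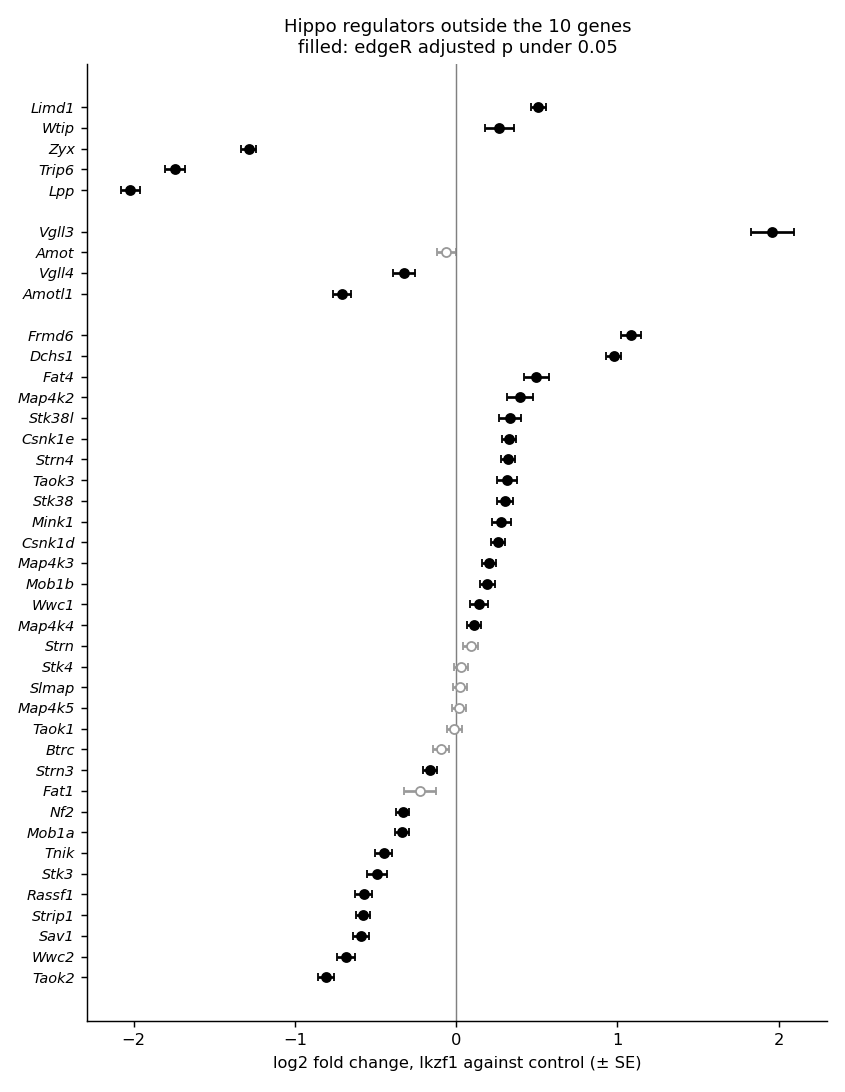
Log2 fold change (Ikzf1 against control, ± SE) of the 41 tested Hippo regulators outside the 10 genes, with the Ajuba and zyxin family at the top, the angiomotin and vestigial-like genes below it and the other regulators at the bottom. Filled points passed the threshold. Lpp, Trip6 and Zyx are at the left, from -2.02 to -1.29, and most of the other genes lie between -0.81 and 0.51.

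The genes that YAP and TEAD are known to activate were described with a signature of 20 genes, of which 17 could be tested and Ankrd1, Ccdc80 and Foxf2 were too low. None of the 10 genes was counted in it, Amotl2 and Lats2 included. Of the 17, 12 fell, 4 rose and 1 did not pass (Asap1), where 29.8% of all genes tested fell and 29.3% rose. Their median log2 fold change was -0.81, beside 0.0012 over all genes tested. Of the 12, 6 had a log2 fold change of -1 or less, and of the 4, 2 had one of 1 or more, counts to be read beside 6.4% and 4.96% of all genes tested. The groups did not overlap for 15 of the 17, and for 53.1% of all genes tested.

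The largest falls of the signature were in Ccn2, F3, Axl, Ccn1 and Myof. Ccn2, a matrix-associated protein and a widely used readout of YAP, was at 29.1, 31.1, 32.1 and 35.6 CPM in the controls and at 4.60, 3.00, 5.17 and 4.30 CPM with Ikzf1 (log2 fold change -2.90, SE 0.11, edgeR adjusted p = 5.98e-17). Its relative Ccn1 fell from 46.7 ± 3.84 to 14.1 ± 1.30 CPM (-1.73, SE 0.075, edgeR adjusted p = 2.35e-17). For both genes every Ikzf1 library was below the lowest control library. F3, which encodes tissue factor, fell from 36.7 ± 2.51 to 6.48 ± 0.70 CPM (-2.50, SE 0.085), and Axl, a receptor tyrosine kinase, from 141 ± 10.2 to 41.0 ± 4.22 CPM (-1.78, SE 0.065). Myof, a membrane repair protein, fell from 59.7 ± 1.83 to 19.6 ± 1.65 CPM (-1.61, SE 0.062), and the highest edgeR adjusted p of F3, Axl and Myof was 4.61e-15 (Axl). The other 7 genes that fell lay between -1.17 (Nuak2) and -0.35 (Arhgef17).

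Not all of the signature went down. Igfbp3, a secreted binding protein of insulin-like growth factors, rose from 0.95 ± 0.26 to 6.13 ± 0.59 CPM (log2 fold change 2.68, SE 0.19, edgeR adjusted p = 1.95e-12). The other 3 genes that rose, named after their values were seen, were Gadd45a (1.41, a growth arrest and stress gene), Nt5e (0.40) and Crim1 (0.17). The calls of Rbms3 (-0.53, edgeR adjusted p = 0.045) and Nt5e (edgeR adjusted p = 0.033) were weak: Rbms3 lost the threshold in 10 and Nt5e in 5 of 15 alternatives, with adjusted p-values up to 0.29 and 0.12. Rbms3 was at 1.36 to 2.29 CPM with Ikzf1 and its groups overlapped.

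**Figure D5:**
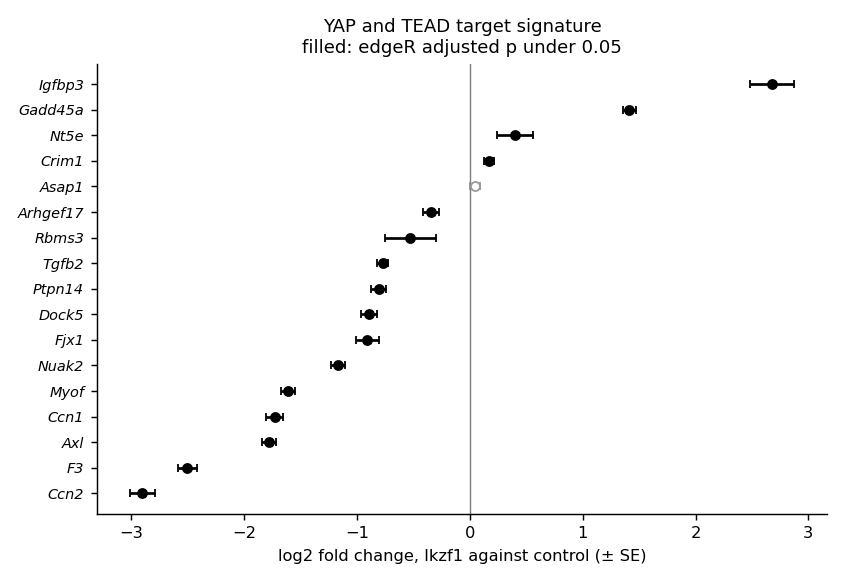
Log2 fold change (Ikzf1 against control, ± SE) of the 17 tested genes of the YAP and TEAD target signature, in order. Filled points passed the threshold. Ccn2 is lowest at -2.90 and Igfbp3 is highest at 2.68, and 12 filled points lie to the left of 0.

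Markers of other cell types moved as well, and their part in the values above was not tested. Of 10 Müller glia markers 9 were measured, with a summed level of 2267 to 2598 CPM in the controls and 1366 to 1511 CPM with Ikzf1, the highest being Vim, which progenitors also express (1598 CPM in the controls and 722 CPM with Ikzf1). Sox9, of the same list and also made by progenitors, fell from 132 to 34.0 CPM (log2 fold change -1.95), whereas Glul did not pass and Slc1a3 rose by 0.31. The 9 photoreceptor markers summed to 786 to 913 CPM in the controls and 451 to 514 CPM with Ikzf1. The 7 retinal ganglion cell markers summed to 145 to 149 CPM and 75.8 to 78.3 CPM, in the controls mostly from Nefl, which fell by 2.64 on the log2 scale. Of the 5 tested, Thy1 also fell, whereas Pou4f1 (2.04), Rbpms (1.33) and Isl1 (0.39) rose. The 8 horizontal and amacrine cell markers summed to 249.03 to 304 CPM and 254 to 282 CPM, ranges that overlap. Of the 7 tested, 3 fell, as did 29.8% of all genes tested, and 4 did not pass. Those that fell were Gad1 (-1.59), Tfap2a (-0.34) and Slc6a9 (-0.24). The endothelial markers summed to 512 to 581 CPM in the controls and 227 to 271 CPM with Ikzf1, nearly all from Kdr (439 to 217 CPM in the mean) and Flt1 (102 to 19.2 CPM). Of the defining endothelial genes, Pecam1 was at 3.06 and 2.92 CPM, Cldn5 at 0.62 and 0.44 CPM, and Cdh5 and Erg were under a mean of 5 normalised counts. The summed markers of pigment epithelium (10.6 to 11.8 and 5.29 to 7.21 CPM), mural cells (4.06 to 5.91 and 3.13 to 5.03 CPM), astrocytes (5.75 to 7.12 and 5.11 to 6.05 CPM) and microglia (1.97 to 2.85 and 1.04 to 2.78 CPM) were low in both groups. Rpe65, which defines pigment epithelium, was at a mean of 0 normalised counts.

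Genes were ranked by likeness to Ajuba over the 8 libraries, by Pearson r of log2 CPM, with the Hippo genes followed here left out. The closest were Rbfox2 (0.9994), Eif4ebp1 (0.9992), Ckap2 (0.9992), Ammecr1l (0.9991) and Cdkn1a (0.9990). The value is a description, since the gap between the groups sets most of it. These genes differed in size of change, from a log2 fold change of -0.78 for Ammecr1l to -2.27 for Cdkn1a. Rbfox2, a splicing factor gene, was at 247 to 251 CPM in the controls and 123 to 127 CPM with Ikzf1. Cdkn1a, the gene of a cyclin-dependent kinase inhibitor, was at 452 to 462 CPM in the controls and 90.1 to 99.1 CPM with Ikzf1, which is the nearest of the 5 to the size of change of Ajuba.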

How the data were processed

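RNA was measured in 4 control and 4 Ikzf1 libraries, grouped by sample title. The authors deposited estimated counts and TPM per transcript, made with Salmon per the submitters' processing notes from a stranded kit (version, annotation release and strand setting are not given in the sources used here). Per the file headers, the comparison table deposited by the authors holds for each gene a mean signal (normalised counts), log2 fold change and standard error, Wald score and p-values. It was made with DESeq2 per the submitters' processing notes.

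The transcript files named no genes. Transcripts were tied to genes through the deposited mean normalised count, matched to runs of up to 60 neighbouring transcripts within a relative tolerance of 5e-09. The mean was 5 or more for 16815 genes, and 16733 of these were joined (99.5%), and after the means were moved slightly 71 (0.422%) still found a run. Counts were summed to genes and rounded, filtered with filterByExpr, scaled by TMM and compared with the two-sided quasi-likelihood F test of edgeR 4.0.16 (Benjamini-Hochberg adjustment over 15582 genes, threshold 0.05). The SE was obtained from the log2 fold change and the F statistic. The scripts were tested on simulated data. Alternatives were DESeq2 1.42.0, 2 other scalings, no filter, an offset for transcript length, Ikzf1 left out, a replicate block, each library left out and, for the 10 genes, TPM rescaled to a total without Ikzf1, with a pseudocount of 0.1.

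The 10 genes and all lists were chosen with earlier results of these data known. Named were all 10, their relatives, and up to 6 called genes of the target signature and of the regulators by size of change. The 5 genes most like Ajuba, among those outside the 10, were named too. Other names were chosen after their values were seen. Letters were searched in RefSeq promoter windows of 250 bases. The CUT&RUN peak lists, on mm9, were not used here, because no gene positions of that build were at hand.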

Additional observations from a re-analysis of the deposited data

Results flagged for a closer look

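Libraries were looked at for a single value far from the other 3 of its group, in 54 groups of 4 libraries (the 27 genes named by rule, in both groups). The gap to the nearest library divided by the range was above the critical value of Dixon's test for 4 values in 2 of the 54, and chance gives about 1 in 20. Lats1 was at 243 CPM in control replicate 1 and at 261 to 265 CPM in the other 3 controls, a gap of 0.853 of the range. Without that library its log2 fold change was -0.09. Lpp was at 122 CPM in control replicate 1 and at 146 to 150.3 CPM in the other 3 controls, a gap of 0.835 of the range. Without that library its log2 fold change was -2.08.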

How the results depend on the processing

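Over 15 alternatives the number of genes past the threshold was between 7840 (offset for transcript length) and 9251 (no filter), against 9202. The target signature kept 14 to 16 calls and the regulators 31 to 34. The median log2 fold change of the 10 genes was between -0.83 and -0.71 over 16 alternatives. With TPM rescaled without Ikzf1, most single genes moved by more than the pooled SD of their log2 CPM. These were Ajuba (-2.59), Amotl2 (-1.07), Tead2 (-0.80), Yap1 (-0.71), Tead1 (-0.34), Lats1 (-0.01) and Lats2 (0.24), and not Wwtr1, Tead3 and Tead4. Tead2 also moved so far with the offset for transcript length (-0.87). With each library left out in turn, the calls were 8611 to 9024 over all genes, 14 to 16 in the signature and 31 to 33 among the regulators, and the median of the 10 was -0.83 to -0.77. None of these counts moved by more than 1.5 times, and none of the 10 genes changed sign. Of the regulators, Fat1, Map4k4 and Wwc1 changed their call in 4 alternatives each, and Btrc, Map4k2, Strn and Wtip in 1 each.

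The replicate numbers did not pair the libraries: the deviations of same-numbered libraries had correlations of 0.016, -0.033, -0.027 and -0.057. With the replicate block 8883 genes were called, with 14 in the signature and 34 among the regulators, and the median of the 10 was -0.79. Depth limits Tead4, at 29 to 52 read pairs per Ikzf1 library, and left Vgll1, Vgll2, Ankrd1, Ccdc80 and Foxf2 untested.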
